A study of Mus musculus with 6 samples.

Results

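The small leucine-rich proteoglycans described here are 10 genes, Dcn, Bgn, Lum, Fmod, Aspn, Ogn, Omd, Prelp, Epyc and Kera, taken as a named family list. This list and the related gene lists below were chosen with earlier results of these data known. The 10 genes were followed across 6 arrays of osteoblastic cells from male mice. Of these arrays, 4 were of WT mice and 2 of Y1-deficient mice (Y1KO), in which the neuropeptide Y receptor Y1 is missing. All 10 had a probe set with exactly 1 gene symbol, and each was read by 1 probe set, so they are 10 of the 19935 genes measured. Both groups carried GFP under a promoter piece of 3.6 kb from the rat alpha1(I)-collagen gene, marrow stromal cells from femora and tibias were kept in control medium for 7 days, and the GFP-positive cells were sorted before RNA was taken. The sources used here give neither age nor strain nor the kind of Y1 deletion. The sort keeps cells in which this promoter piece is active in culture, which is not every cell of the bone.

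These proteins are small secreted cores built from leucine-rich repeats, and most carry glycosaminoglycan chains of the chondroitin, dermatan or keratan sulfate kind. They bind fibrillar collagen, set the thickness and spacing of its fibrils, and hold growth factors such as TGF-beta in the matrix. In bone, decorin and biglycan are the classic members of the osteoid, and osteomodulin and osteoglycin were first described in bone matrix. The family is divided by sequence into classes, of which class I (Dcn, Bgn, Aspn), class II (Fmod, Lum, Prelp, Omd, Kera) and class III (Ogn, Epyc) are represented by the listed genes.

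The array values are log2 expression, already normalized by the authors. The array medians lay between 5.30 and 5.37. Taken over genes, which are no independent replicates, the correlation was 0.991 to 0.996 within WT, 0.996 between the Y1KO arrays and 0.976 to 0.987 across genotypes. Osteoblast markers were present: in WT, Col1a1, Ibsp, Alpl and Sp7 lay at percentiles 99.99, 99.9, 99.5 and 97.4 of all genes. Npy1r, the targeted gene, was dim in both genotypes, with a WT mean of 2.94 (SD 0.15, n = 4) and a Y1KO mean of 2.86 (SD 0.04, n = 2; limma adjusted p = 0.768), so it checks the genotype labels neither way. Whether every array came from its own mouse is not stated in the labels, so p-values measure only the spread between these arrays, which may be technical. Because a bulk array sees all sorted cells together, fewer cells of a type and less RNA per cell cannot be told apart in any value given here.

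The proteoglycan genes did not move as a block when WT and Y1KO cells were compared. Dcn rose in Y1KO, Ogn, Aspn and Prelp fell, and Bgn, Fmod, Lum, Omd, Epyc and Kera did not pass the test. A gene was called at a limma p under 0.05 after Benjamini-Hochberg adjustment across the 19935 genes. By that rule 4 of the 10 members were called, against 12.7% of all genes; 1 rose, against 6.1%, and 3 fell, against 6.64%. At an unadjusted p under 0.05, 2 members were higher and 3 lower, against 11.7% and 12.5% of all genes. The shares over all genes, here and for the lists below, include dim genes, while 8 of the 10 members lay above the median of all genes in WT. With a filter at the 40th percentile, 2750 of the fewer genes left were called, against 2541 of all genes. No share over brighter genes alone is given. The median difference of the members was 0.07 and that of all genes 0.01. In 7 members both Y1KO arrays lay beyond every WT array, 3 above and 4 below, where 34.8% of all genes did so (17.5% above, 17.3% below). Epyc, whose level is that of silent genes, is among the 3 above. The count of calls depended on single arrays and on how the variance was modelled: 0 members rose without WT replicate 1, WT replicate 4, Y1KO replicate 1 or Y1KO replicate 2 and 2 rose without WT replicate 3, while 1 member fell without either Y1KO array. A single remaining Y1KO array is assumed to vary like the WT arrays, which then supply the whole spread, and calls over all genes dropped from 2541 to 944 without Y1KO replicate 1 and to 487 without replicate 2. With the trend and robust options 0 rose and 1 fell, and without moderation of the variance the counts were also 0 and 1.

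**Figure D1:**
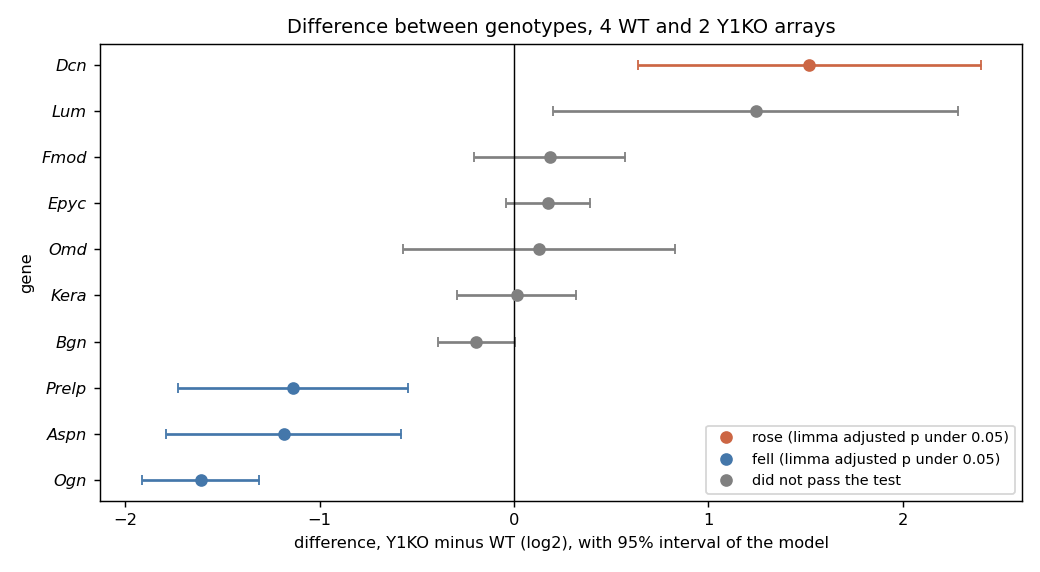
Difference between Y1KO and WT for each proteoglycan gene on the log2 scale (horizontal axis), with the 95% interval of the limma model over 4 WT and 2 Y1KO arrays. Dcn, at 1.52, is the gene that rose; Prelp, Aspn and Ogn, at -1.14, -1.19 and -1.61, are the genes that fell.

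Among the class I genes, Dcn rose, Aspn fell and Bgn did not pass the test. Dcn encodes decorin, which carries a single chondroitin or dermatan sulfate chain and binds collagen fibrils and TGF-beta. On the WT arrays, given in the order of replicates 1 to 4 here and for each gene that follows, it read 8.80, 7.96, 9.73 and 8.86 (log2), and on Y1KO replicates 1 and 2 it read 10.16 and 10.56. Both Y1KO arrays lay above all WT arrays, and WT replicate 3 was the closest to them. Dcn rose by 1.52 (SE 0.39, limma adjusted p = 0.0349, 95% interval 0.64 to 2.40), a 2.87-fold rise with an interval of 1.56 to 5.28. The call was lost without WT replicate 1 (limma adjusted p = 0.0673) or WT replicate 4 (0.0745). It was also lost with trend and robust options (limma adjusted p = 0.129) and without moderation (0.237). Leaving out Y1KO replicate 1 or 2 lost it as well, with differences of 1.72 and 1.32. The difference of Dcn lay between 1.23 and 1.98 in every setting tried.

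Bgn encodes biglycan, the close relative of decorin with a pair of chains, whose loss in mice lowers bone mass. It was among the brightest genes of the array in both genotypes, at percentile 99.9 in WT and 99.8 in Y1KO. WT arrays read 12.28, 12.34, 12.35 and 12.39, and Y1KO arrays 12.08 and 12.21. The groups did not overlap, yet the difference was small, -0.19 (SE 0.09, 95% interval -0.39 to 0.00), and did not pass the test (limma adjusted p = 0.216). The interval leaves room for a decrease of up to 1.31-fold. 

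Aspn encodes asporin, a class I member with a stretch of aspartate residues that binds collagen and calcium and acts on TGF-beta and BMP signals. WT arrays read 8.78, 8.48, 7.66 and 8.07 and Y1KO arrays 7.20 and 6.93. All WT arrays lay above both Y1KO arrays, with WT replicate 3 the closest. Aspn fell by 1.19 (SE 0.27, 95% interval -1.79 to -0.58, limma adjusted p = 0.0210), which is 2.28-fold. The call was lost without Y1KO replicate 1 (limma adjusted p = 0.0909) or replicate 2 (0.198), with trend and robust options (0.0523) and without moderation (0.188).

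**Figure D2:**
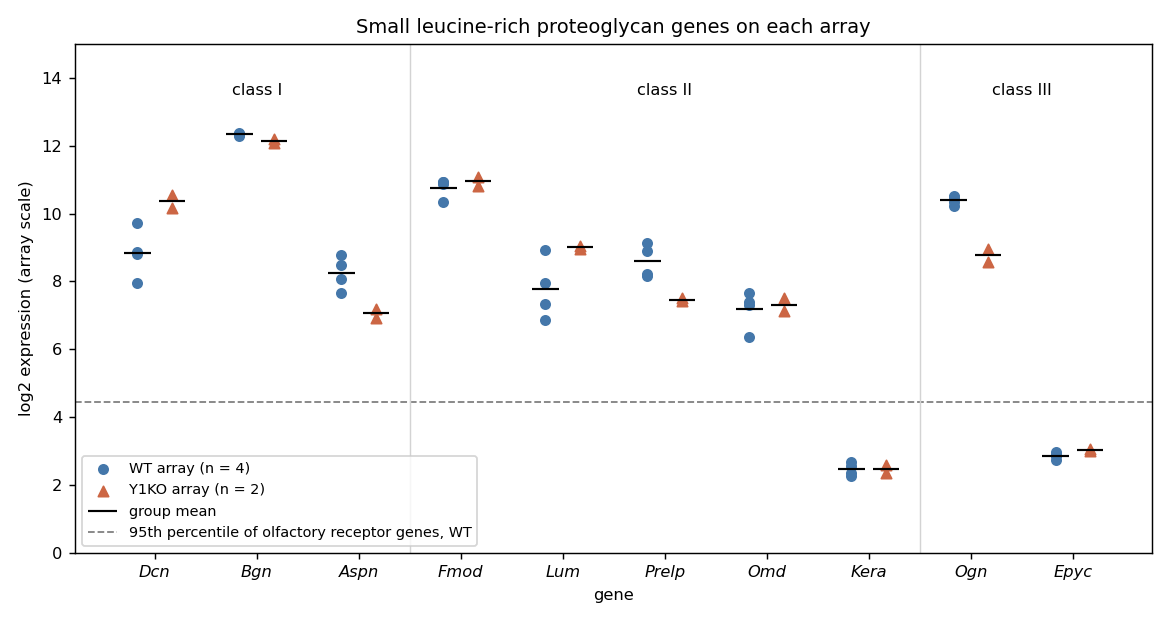
Log2 expression (vertical axis) of the 10 genes on each of 4 WT arrays (circles) and 2 Y1KO arrays (triangles), grouped by class, with group means as bars and the 95th percentile of olfactory receptor genes in WT, 4.45, as a dashed line. Kera and Epyc lie below that line in both genotypes; the other genes lie above it on every array. Heights of different genes come from different probe sets and do not rank their transcripts.

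In class II, Prelp fell, Lum was higher without passing the test, and Fmod and Omd differed little. Prelp encodes a proline- and arginine-rich repeat protein that links collagen to heparan sulfate of basement membranes. Its values were 8.15, 8.90, 9.12 and 8.22 in WT and 7.43 and 7.50 in Y1KO. The Y1KO arrays were close to each other and below all WT arrays. Prelp fell by 1.14 (SE 0.26, 95% interval -1.73 to -0.55, limma adjusted p = 0.0225), or 2.20-fold. It lost its call without Y1KO replicate 1 (limma adjusted p = 0.147) or replicate 2 (0.152), with trend and robust options (0.0547) and without moderation (0.192).

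Lum encodes lumican, a keratan sulfate proteoglycan best known from the cornea that regulates collagen fibril thickness. WT arrays read 7.94, 6.86, 8.91 and 7.34, and Y1KO arrays 8.97 and 9.05. WT replicate 3 stood only just below the Y1KO arrays, and the other WT arrays lay well under it. The difference was 1.24 (SE 0.46, 95% interval 0.20 to 2.28) and did not pass the test (limma adjusted p = 0.127). Without WT replicate 3 it was 1.63 and passed (limma adjusted p = 0.0112), and it also passed with array weights (0.0400).

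Fmod encodes fibromodulin, which shares a collagen site with lumican and is abundant in tendon and cartilage. Its values were 10.92, 10.35, 10.86 and 10.92 in WT and 10.82 and 11.08 in Y1KO. The groups overlapped, WT replicate 2 was the lowest array, and the difference was 0.18 (95% interval -0.21 to 0.57, limma adjusted p = 0.602). Omd encodes osteomodulin, also called osteoadherin, a keratan sulfate proteoglycan of mineralised matrix that binds cells through an integrin. Its values were 7.29, 6.37, 7.66 and 7.40 in WT and 7.12 and 7.50 in Y1KO, again with WT replicate 2 lowest and both Y1KO arrays inside the WT range. The difference of 0.13 (95% interval -0.57 to 0.83, limma adjusted p = 0.869) became -0.14 without WT replicate 2 and -0.06 without Y1KO replicate 2.

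In class III, osteoglycin gave the largest difference of the 10 members. Ogn encodes osteoglycin, also called mimecan, a small proteoglycan first isolated from bone that also circulates as a hormone-like factor. WT arrays read 10.21, 10.50, 10.51 and 10.33, and Y1KO arrays 8.96 and 8.59. The lowest WT array was more than a full log2 unit above the higher Y1KO array. Ogn fell by 1.61 (SE 0.13, 95% interval -1.92 to -1.31, limma adjusted p = 0.000370), a 3.06-fold fall with an interval of 2.48 to 3.78. It was the member that was called in all 15 alternative settings, with limma adjusted p between 0.000116 and 0.0450, and its difference stayed between -1.80 and -1.42. On a scale of single values, exact two-sided permutation of the array labels (15 splits) gave p = 0.0667 for Dcn, Bgn, Aspn and Ogn alike, the smallest such a test can give here, and 0.133 for Prelp, Lum and Epyc.

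Epyc and Kera were at the level of genes that bone cells are not known to express. Epyc encodes epiphycan of growth plate cartilage, and Kera encodes keratocan of the cornea. As a reference, 1027 olfactory receptor genes had a median of 2.78 and a 95th percentile of 4.45 in WT. The WT and Y1KO means of Epyc were 2.86 (SD 0.10, n = 4) and 3.03 (SD 0.03, n = 2), and those of Kera 2.46 (SD 0.18) and 2.47 (SD 0.18). No fold is given for either, since a difference at this level cannot be read as a change in transcript. Of the 10 members, 8 lay above the 95th percentile of the olfactory receptor genes in WT.

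The members also differed in how much they varied among WT arrays, and that variation had a shared shape in part of them. The SD across WT arrays was 0.88 for Lum, 0.73 for Dcn, 0.56 for Omd, 0.49 for Aspn and 0.48 for Prelp, at percentiles 98.6 to 99.8 of the SDs of all genes, whose median was 0.12. For Bgn and Ogn it was 0.05 and 0.14. Set against the WT mean, WT replicate 2 was low in Dcn (-0.88), Lum (-0.90), Omd (-0.81) and Fmod (-0.41), and WT replicate 3 was high in Dcn (0.89), Lum (1.15) and Omd (0.48). In Aspn the order was turned, with WT replicate 3 lowest at -0.59, and in Prelp replicates 2 and 3 were the high arrays.

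The mean of 8 osteoblast markers had the same low and high WT arrays as Dcn, Lum and Omd. It stood at -0.67 in WT replicate 2 and 0.40 in WT replicate 3 relative to the WT mean, and at 0.74 and 0.86 in the Y1KO arrays. This shape was not particular to osteoblast markers. The tendon marker mean was also lowest in WT replicate 2 (-0.17) and highest in WT replicate 3 (0.16), with 0.32 and 0.48 in the Y1KO arrays. The endothelial marker mean had the same lowest and highest WT arrays (-0.11 and 0.16), with -0.05 and 0.01 in the Y1KO arrays. Of the 8 osteoblast markers 1 rose, Ifitm5, and 0 fell. Ifitm5 lost its call in 6 of 15 alternative settings. Among them were leaving out WT replicate 1 or WT replicate 4, trend and robust options, and no moderation. Runx2, Bglap and Spp1 were also listed as osteoblast markers but were not among the genes measured. The mean of 10 smooth muscle markers, of which 8 fell and 0 rose, was -0.92 and -1.07 in the Y1KO arrays against -0.15 to 0.21 in WT. The mean of 7 adipocyte markers, of which 4 fell and 0 rose, was -1.21 and -1.20 against -0.22 to 0.27. The mean of 11 macrophage markers, of which 6 rose and 0 fell, was 0.26 and 0.61 against -0.13 to 0.06, while the pan-leukocyte gene Ptprc stood at 4.18 in WT and 4.33 in Y1KO, below the olfactory 95th percentile. Of the 11 macrophage markers 2 lay above the median of all genes in WT. The 6 that rose, Adgre1, Cd68, Csf1r, Laptm5, Lyz2 and Mrc1, each lost the call without moderation. All of them but Adgre1 also lost it without WT replicate 4. Of 7 tendon markers 2 rose, Scx and Mkx, and 0 fell; of 9 chondrocyte markers 1 rose and 1 fell; of 7 fibroblast markers 1 rose and 1 fell; and of 6 endothelial markers 0 rose and 0 fell, with 0 of the 6 above the median of all genes in WT. The fibroblast marker that rose, Dpt, had means of 3.70 and 4.34, under the olfactory 95th percentile in both genotypes. By limma at an unadjusted p under 0.05, 5 osteoblast, 6 macrophage, 4 tendon, 2 chondrocyte, 2 fibroblast and 1 smooth muscle marker (Des) were higher, 9 smooth muscle, 4 adipocyte, 1 chondrocyte and 1 fibroblast marker were lower, and 0 endothelial markers differed. Over all genes, 11.7% were higher and 12.5% lower at that level. The share called after adjustment was 80% for smooth muscle, 57.1% for adipocyte and 54.5% for macrophage markers, against 12.7% of all genes. For tendon and fibroblast markers it was 28.6%, for chondrocyte 22.2%, for osteoblast 12.5% and for endothelial markers 0%. Among the smooth muscle markers, Lmod1 lost its call with quantile normalization, with median-centred arrays, and without any single WT array. Without moderation Lmod1, Acta2, Cnn1, Myh11 and Tagln lost their calls, and Actg2, Myl9 and Mylk kept theirs. The part of these cell mixtures in the proteoglycan differences was not tested.

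**Figure D3:**
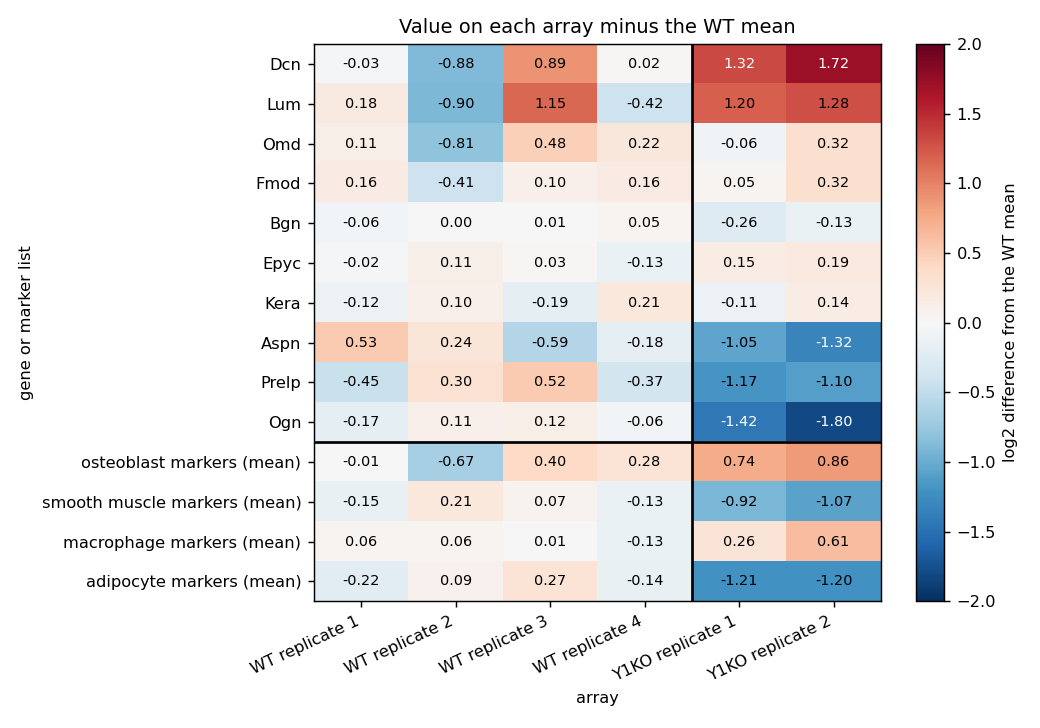
Each cell gives the log2 value on 1 array (columns) minus the WT mean, for the 10 genes (upper rows) and for the mean of 4 marker lists (lower rows), red above and blue below the WT mean. Dcn, Lum and the osteoblast markers share a low WT replicate 2, at -0.88, -0.90 and -0.67, and Ogn, Aspn and Prelp are blue in both Y1KO arrays together with the smooth muscle and adipocyte markers.

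Ratios within an array show how unequal these differences were, since a factor common to the whole array cancels in them. For biglycan over decorin, the log2 ratio was 3.47, 4.39, 2.62 and 3.52 in WT and 1.92 and 1.65 in Y1KO, a shift of -1.72. For asporin over decorin it was -0.03, 0.53, -2.07 and -0.80 in WT and -2.97 and -3.63 in Y1KO, a shift of -2.71, the largest of the 7 ratios compared. In both, the Y1KO arrays lay below every WT array. For osteomodulin over osteoglycin, neighbours on chromosome 13, the ratio was -2.92, -4.13, -2.85 and -2.93 in WT and -1.85 and -1.08 in Y1KO, a shift of 1.74 without overlap. The exact two-sided permutation p of these 3 ratios was 0.0667 (0.156 after Benjamini-Hochberg adjustment over 7 ratios), and no smaller p is possible with 15 splits. The shifts of lumican over fibromodulin (1.06), fibromodulin over Prelp (1.32) and asporin over osteomodulin (-1.31) had exact permutation p of 0.200, 0.133 and 0.200, and decorin over lumican shifted by 0.28 (exact permutation p = 0.400). Decorin over lumican had the smallest shift between genotypes of the ratios compared.

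Most of these genes sit in runs along chromosomes, and neighbours within a run differed in their calls. By gene order in the RefSeq gene table for GRCm38.p6, Dcn, Lum, Kera and Epyc follow each other on chromosome 10, Aspn, Omd and Ogn on chromosome 13 and Prelp and Fmod on chromosome 1, while Bgn lies alone on chromosome X. On chromosome 13 the members that fell, Aspn and Ogn, flank Omd, which did not pass. Ecm2, a further leucine-rich matrix gene next to Aspn, fell (limma adjusted p = 0.00231) from a WT mean of 5.21 to a Y1KO mean of 4.47. The Y1KO mean lay just under the olfactory 95th percentile of 4.48 in Y1KO, so the fall is given against that level, as at least 0.74 on the log2 scale. Cenpp, a centromere protein gene whose span overlaps that whole run in the gene table, fell by 0.76 (limma adjusted p = 0.00601), and the sources used here do not say whether the array's signal separates overlapping genes. On chromosome 1, Prelp fell beside Fmod, and on chromosome 10 Dcn rose beside Lum, with Kera and Epyc at the level of silent genes.

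Among the 24 measured genes that flank or lie in these runs and are not members, 2 rose and 4 fell. Over all genes, 6.1% rose and 6.64% fell. The calcium pump gene Atp2b1, beyond Epyc, rose by 0.45, and the isoleucyl-tRNA synthetase gene Iars, beyond Ogn, by 0.35. Besides Ecm2 and Cenpp, the splicing factor gene Snrpe near Prelp fell by 0.53 and the spindle gene Haus7 near Bgn by 0.78. Leaving out WT replicate 1 or 2 left 1 rising gene, leaving out either Y1KO array left 0, and leaving out Y1KO replicate 2 left 1 falling gene.

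**Figure D4:**
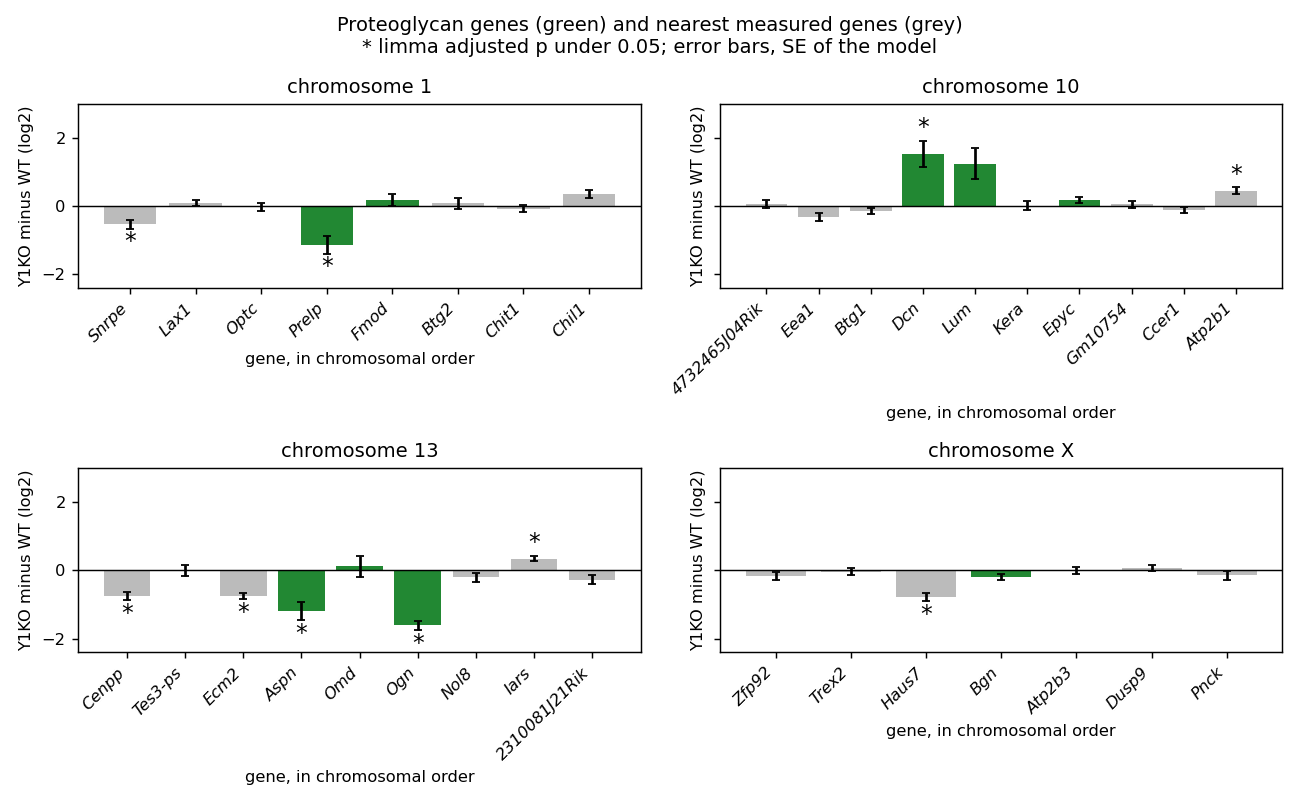
Difference Y1KO minus WT (log2, vertical axis) of the proteoglycan genes (green) and the nearest measured genes (grey), in chromosomal order with no distances, for chromosomes 1, 10, 13 and X; bars start at 0, error bars are the SE of the model and asterisks mark limma adjusted p under 0.05. On chromosome 13 Omd, at 0.13, stands between Aspn at -1.19 and Ogn at -1.61.

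The promoters of the chromosome 13 run are shown because 2 of its members fell and the middle one did not. Each is the 250 bases before the transcription start in RefSeq (GRCm38.p6), 5′ to 3′ on the gene's own strand, and 8 of the 10 members were found in that promoter table. Dcn, the member that rose, and Lum were not found, so no window below belongs to a gene that rose. Capitals mark matches on either strand to TATAAA, the core of a TATA box, to the E-box CANNTG, and to the RUNX site TGTGGT; overlapping matches are merged. Ogn is at chr13:49607765-49608014 on the + strand, Aspn at chr13:49544193-49544442 on the + strand and Omd at chr13:49582212-49582461 on the + strand.
Ogn: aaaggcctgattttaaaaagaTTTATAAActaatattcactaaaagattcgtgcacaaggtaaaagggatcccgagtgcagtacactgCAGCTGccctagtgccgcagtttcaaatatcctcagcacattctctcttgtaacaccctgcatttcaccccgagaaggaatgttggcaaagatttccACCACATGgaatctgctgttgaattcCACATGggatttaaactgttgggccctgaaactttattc
Aspn: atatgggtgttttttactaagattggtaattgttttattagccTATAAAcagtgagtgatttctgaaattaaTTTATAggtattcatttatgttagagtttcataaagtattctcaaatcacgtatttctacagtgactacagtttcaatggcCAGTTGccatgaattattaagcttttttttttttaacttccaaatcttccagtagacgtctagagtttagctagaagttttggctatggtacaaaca
Omd: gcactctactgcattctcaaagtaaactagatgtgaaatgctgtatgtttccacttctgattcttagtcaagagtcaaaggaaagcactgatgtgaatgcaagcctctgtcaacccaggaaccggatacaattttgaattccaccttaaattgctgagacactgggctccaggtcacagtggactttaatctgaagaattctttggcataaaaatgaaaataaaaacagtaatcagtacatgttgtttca

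The Ogn window held 3 E-boxes and 1 RUNX match, which overlaps an E-box, and 2 overlapping TATAAA matches far from the start, at -229 and -227. The Aspn window held 1 E-box and 2 TATAAA matches, also far from the start, at -207 and -178. The Omd window held no E-box, RUNX or TATAAA match. Over all 32851 promoter windows of this length, 66.2% held an E-box, 14.0% the RUNX site and 12.4% TATAAA. The core of the cAMP response element, TGACG (17.8% of all windows), the AP-1 site TGANTCA (6.7%) and the CArG box (1.5%) were searched as well and had 0 matches in the windows of Ogn, Aspn and Omd, and also in those of Prelp, Fmod and Bgn. The E-box was found once each in Fmod and Bgn and not in Prelp. The windows of Ogn, Aspn and Omd were poor in G and C, at 42.0%, 30.0% and 38.4%, against a median of 52.4% over all windows, while that of Bgn held 64.4%. A match describes letters in a window and is not a site shown to be bound.

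Of the 7 other genes of the wider family that were measured, 3 fell and 0 rose by limma (3 and 0 also at an unadjusted p under 0.05), and the median difference was -0.02. Called genes made up 42.9% of these, against 12.7% of all genes (6.1% rose, 6.64% fell). Podnl1, a podocan-like gene of class V, read 8.78, 9.13, 8.63 and 8.64 in WT and 7.70 and 7.58 in Y1KO, and fell by 1.15 (SE 0.15, limma adjusted p = 0.00207). Its relative Podn, podocan, fell by 0.56 (limma adjusted p = 0.0475), and Ecm2 fell as given above. Podn lost its call without WT replicate 4 or either Y1KO array, and with quantile normalization or median-centred arrays. The genes that did not pass were Chadl at 0.10, Chad, the cartilage chondroadherin, at 0.05, Nyx, nyctalopin of the retina, at -0.02 and Optc, opticin of the eye, at -0.02. Without moderation 0 of these genes fell.

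Of 26 measured genes that build and sulfate chondroitin and dermatan sulfate, 10 rose and 1 fell, with a median difference of 0.26 against 0.01 over all genes. Called genes made up 42.3% of this list, against 12.7% of all genes (6.1% rose, 6.64% fell). Of the 26 genes, 23 lay above the median of all genes in WT. Chpf2, a chondroitin polymerising factor, rose by 0.91, the WT mean being 7.65 (SD 0.10, n = 4) and the Y1KO mean 8.56 (SD 0.23, n = 2; limma adjusted p = 0.00214). B3gat3, which completes the linkage that joins the chain to the core protein, rose by 0.63, and Papss2, which makes the sulfate donor, by 0.87. Csgalnact1, which starts the chondroitin chain, went the other way and fell by 1.24 (SE 0.21, limma adjusted p = 0.00676). Named after their values were seen, the other genes that rose were the linkage enzyme B4galt7 (0.49), the chain enzymes Csgalnact2 (0.39), Chsy1 (0.60) and Chpf (0.52), the sulfotransferases Chst11 (1.06) and Chst13 (0.93) and the sulfate transporter Slc26a2 (0.59). The epimerases that turn chondroitin into dermatan sulfate, Dse at -0.42 and Dsel at -0.01, did not pass. Leaving out Y1KO replicate 1 left 4 rising genes, leaving out replicate 2 left 1, and 1 rose without moderation, and the falling genes 3 without WT replicate 3 and 0 without either Y1KO array.

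Keratan sulfate and tyrosine sulfation enzymes, which act on several class II proteins, were measured through 13 genes. Of these 0 rose and 1 fell by limma (0 and 4 at an unadjusted p under 0.05, where 12.5% of all genes were lower), with a median of -0.20. The share called in the list was 7.69%, against 12.7% of all genes. The member that fell was Chst1, a keratan sulfate sulfotransferase, by 0.45 (SE 0.11, limma adjusted p = 0.0284). The count of falling genes was 0 without WT replicate 1, Y1KO replicate 1 or Y1KO replicate 2, and Chst1 also lost its call without WT replicate 2.

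Of 14 proteases known to process or cut these proteoglycans, 1 rose and 3 fell, with a median of 0.01. The share called was 28.6%, against 12.7% of all genes (6.1% rose, 6.64% fell). That share over all genes includes dim genes, while 9 of the 14 proteases lay above the median of all genes in WT. Mmp13, the collagenase of bone, fell by 2.19, the WT mean being 11.71 (SD 0.27, n = 4) and the Y1KO mean 9.52 (SD 0.25, n = 2; limma adjusted p = 0.000324). The aggrecanase genes Adamts5 and Adamts1 fell by 1.49 and 1.09, and Mmp2, a gelatinase, rose by 0.40. Bmp1, which trims the biglycan propeptide, stood at -0.04 and did not pass. Without either Y1KO array 1 protease fell and 0 rose; 0 rose without WT replicate 4 and 2 without WT replicate 3. With trend and robust options, or without moderation, 1 fell.

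Of 19 collagens and other matrix partners, 4 rose and 5 fell, with a median of 0.08. The share called was 47.4%, against 12.7% of all genes (6.1% rose, 6.64% fell). Of the 19 genes, 16 lay above the median of all genes in WT. Col11a1, a fibril-seeding collagen chain, rose by 1.25 (SE 0.16, limma adjusted p = 0.00203), Col5a2 by 0.58 and the matricellular gene Ccn4 by 0.52. Col2a1, the cartilage fibril collagen, fell by 1.59. Named after their values were seen, Col11a2 rose by 1.28, and Col5a3 and the collagen VI chains Col6a1, Col6a2 and Col6a3, which biglycan and decorin bind, fell by 0.57, 0.54, 0.47 and 0.50. Col1a1 was 0.18 higher and did not pass (limma adjusted p = 0.225). Without either Y1KO array 1 partner rose and 1 fell, and the falling partners numbered 2 if WT replicate 1 or 2 was left out and 1 if WT replicate 4 was.

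Of 19 growth factors and receptors known to bind the family, 2 rose and 5 fell, with a median of -0.07. The share called was 36.8%, against 12.7% of all genes (6.1% rose, 6.64% fell). Of the 19 genes, 13 lay above the median of all genes in WT. Bmp4 fell by 1.00 (SE 0.10, limma adjusted p = 0.000877), Egfr, a receptor that decorin can bind, by 1.23, Tgfb3 by 1.15 and Ccn2 by 0.99. Named after their values were seen, Tgfb2 fell by 0.84 while Tgfb1 and the integrin gene Itga2 rose by 0.48 and 0.73. The call of Itga2 was lost with all probe sets as units, with trend and robust options and without moderation. In these settings 1, 1 and 0 genes of the list rose, and 5, 5 and 1 fell. The toll-like receptor genes Tlr2 and Tlr4, through which free biglycan acts, stood at 0.07 and -0.14 and did not pass. Without either Y1KO array 3 genes of the list fell; 1 rose without WT replicate 1, WT replicate 2 or Y1KO replicate 1, and 0 without WT replicate 4 or Y1KO replicate 2. In the same Y1KO arrays the smooth muscle and macrophage marker means differed from WT by -0.99 and 0.44, and their part in these lists was not tested.

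**Figure D5:**
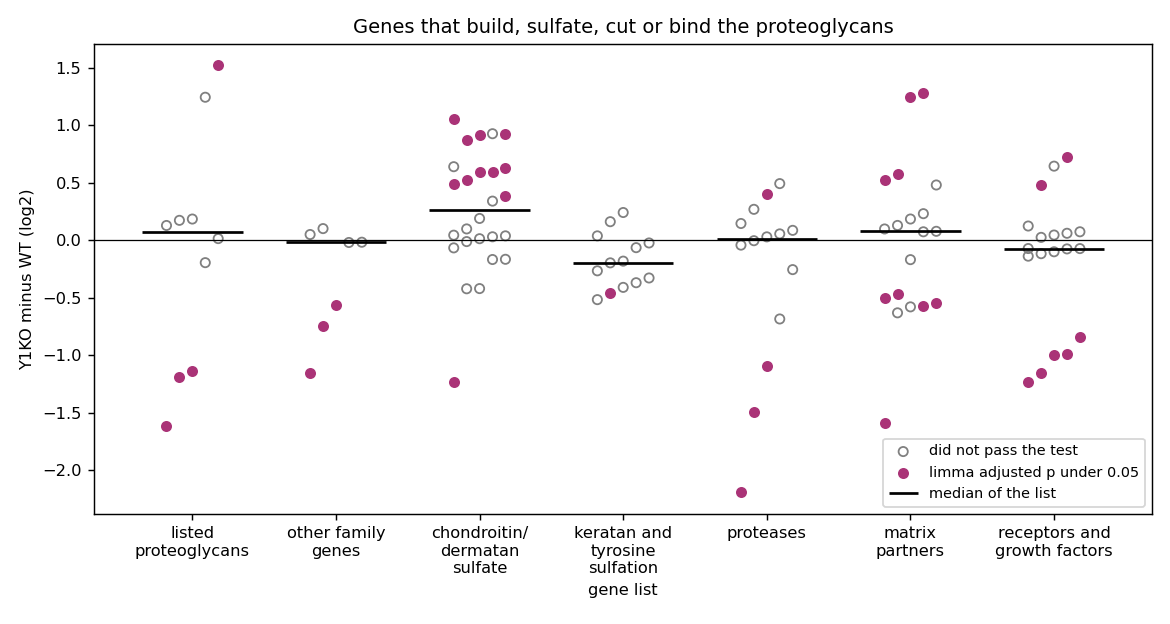
Difference Y1KO minus WT (log2, vertical axis) of each measured gene in 7 lists (horizontal axis); filled points passed limma at an adjusted p under 0.05, open points did not, and bars are list medians. The chondroitin and dermatan sulfate list has the highest median, 0.26, and the keratan and tyrosine sulfation list the lowest, -0.20.

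The genes whose profiles over the 6 arrays lay closest to the 3 called members of largest difference were found by the root mean square distance between values centred on the WT mean. Genes whose symbols mark them as predicted or clone-named were left out. So were olfactory and vomeronasal receptor, histone, microRNA and small nucleolar RNA genes. Closest to Ogn were Myl9, a myosin light chain of contractile cells, at a distance of 0.08, the transcription factor gene Ebf1 at 0.10 and the adhesion receptor gene Adgra2 at 0.10, which differed by -1.60, -1.67 and -1.53. Closest to Dcn were the chromatin organiser gene Satb1 (0.18), the antigen-presenting gene Cd1d1 (0.20) and the galectin gene Lgals2 (0.20), which differed by 1.67, 1.51 and 1.57. Closest to Aspn were Tspan8 (0.19), Ehd2 (0.20) and Zfp503 (0.24), with differences of -0.99, -1.15 and -0.95. A like difference between genotypes brings profiles close by this measure.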

How the data were processed

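Total RNA of sorted cells was labelled with biotin by an Affymetrix whole-transcript kit, per the labels' protocols. The authors deposited log2 expression values for 28815 probe sets on 6 arrays; the submitters' processing notes name RMA and limma without versions or settings, and the sources used here name no genome build. The values were used as they are. Arrays have no read depth; their number, 4 against 2, limits the precision. Probe sets with exactly 1 symbol in the platform annotation (21780; 1605 had several and 5430 were not listed) were kept, and a gene with several was represented by the brightest on average. Names were checked against RefSeq (21689 matched by gene ID).

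Y1KO was compared with WT in R 4.3.3 with limma 3.58.1 (lmFit, eBayes without trend or robust options, genotype only, two-sided), tested on simulated data first. "Rose" and "fell" are used only at a Benjamini-Hochberg adjusted p under 0.05 over all genes. All differences subtract WT from Y1KO log2 values and understate changes of dim genes. The members and lists were chosen with earlier results of these data known. Named genes were all members, the measured family genes, the 4 called genes of smallest p per list, called flanking genes (3 measured genes on each side of a run) and the 3 genes closest in profile to each of the 3 most changed members. Bmp1, Dse, Dsel, Tlr2, Tlr4, Col1a1 as a matrix partner, Des, Dpt and the genes marked so in the text were named after their values were seen. Alternatives were quantile normalization, median centring, a filter at the 40th percentile, the mean of probe sets, all probe sets as units, trend and robust options, no moderation, array weights, a replicate block and leaving out each array.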

Additional observations from a re-analysis of the deposited data

Results flagged for a closer look

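Among 17 sets of WT values checked (10 genes and 7 ratios), 2 had an array far from the other 3, where chance gives about 5% of sets. For Fmod in WT, the gap of WT replicate 2 to its nearest neighbour was 0.895 of the whole WT range; it read 10.35 where the others read 10.86 to 10.92. For the osteomodulin over osteoglycin ratio in WT it was 0.941, with WT replicate 2 at -4.13 and the others between -2.93 and -2.85. Both exceed Dixon's 95% critical value for 4 arrays.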

How the results depend on the processing

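Ogn kept its call in all 15 alternative settings, and 0 of the alternatives turned the direction of Dcn, Lum, Aspn, Prelp, Bgn, Fmod or Epyc. With trend and robust options 0 members rose and 1 fell; without moderation 0 rose and 1 fell; with array weights 2 rose, Dcn and Lum. With the replicate number as a block, 2 members rose, Dcn and Lum (limma adjusted p = 0.00547 and 0.00900), 3 fell, 0 neighbouring genes rose, and 2181 genes were called over the array. Podn lost its call with that block (limma adjusted p = 0.112). So did B4galt7, Csgalnact2, Chpf, Mmp2, Mkx, Dpt, Atp2b1, Iars and Snrpe among the genes named. With the block, 3 keratan and tyrosine sulfation genes and 3 chondroitin and dermatan sulfate genes fell. Deviations of same-numbered arrays correlated at 0.01 and -0.20. The deviations of the 2 Y1KO arrays from their own mean mirror each other. Both correlations therefore rest on 1 Y1KO contrast and cannot decide on pairing. The shared numbers were not taken to pair the arrays. Without moderation 344 genes were called, 140 higher and 204 lower, with 1 related gene higher and 2 lower and 0 neighbouring genes in either direction, against 2541 calls (1217 and 1324), 17 and 18 related genes, and 2 and 4 neighbouring genes. With quantile normalization 1 neighbouring gene rose. When 1 array at a time was left out, calls ran from 487 to 2461 (152 to 1172 higher, 335 to 1289 lower), rising members from 0 to 2 and falling members from 1 to 3, rising and falling related genes from 2 to 20 and from 7 to 21, and rising and falling neighbouring genes from 0 to 2 and from 1 to 4. With the median centring 1346 genes were called higher and 1169 lower. The difference of Kera turned negative with quantile normalization (-0.0019) and without WT replicate 1 (-0.02), WT replicate 3 (-0.05) or Y1KO replicate 2 (-0.11), and that of Omd without WT replicate 2 (-0.14) or Y1KO replicate 2 (-0.06); leaving out 1 array at a time gave -0.11 to 0.14 for Kera and -0.14 to 0.32 for Omd, and neither passed the test in any setting. Where a call changed, the cause was not tested. The filter at the 40th percentile removed Epyc and Kera. The number of arrays and signals near the low end of the array limit all values.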
